A study of Homo sapiens with 12 samples.

Results

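The genes described here are 10 chemokines and cytokines that glioma cells are known to secrete: the chemokines CCL2, IL8, CXCL1, CXCL2 and CXCL3, the colony-stimulating factors CSF3 and CSF2, and the interleukin-6 family members IL6, LIF and IL11. They were picked by name, as the rows of the deposited table whose platform symbol was one of the 10. Of these, 7 had a row of their own that no other symbol shared, out of 13530 genes with a row. IL8 (also looked for as CXCL8), CXCL1 and CXCL3 had no row with a symbol of their own and were not analysed here. The row of each of the 7 gives 1 log2 signal per array, and differences are taken between arrays within a gene. Across genes, signals serve to set a filter on dim genes and to name the brightest markers.

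RNA was measured on 12 Affymetrix whole-transcript arrays from U-87MG, an established human glioblastoma line, so every group is a version of 1 line. All 12 samples carried the control shRNA, shCtrl, introduced by lentivirus to make a stable line. They were treated for 24 h with the solvent DMSO (at most 0.2% of the medium), with FICZ (6-formylindolo[3,2-b]carbazole) at 100 nM, or with kynurenic acid (KynA) at 50 µM, with 4 arrays per group. FICZ, a tryptophan photoproduct, and KynA, a tryptophan metabolite, both bind the aryl hydrocarbon receptor (AHR), and the study asked what its activation does to expression in these cells. No group here lacked AHR, so dependence on the receptor was not tested. The labels call the 4 samples of a group biological replicates without saying whether cultures were separate, so the p-values speak only of how far these samples scatter, and part of that scatter may be technical.

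Chemokines are small secreted proteins that draw leukocytes along a gradient through G-protein-coupled receptors. CCL2 draws monocytes through its receptor CCR2 and is known in glioma for attracting macrophages and microglia, whereas CXCL1, CXCL2, CXCL3 and IL8 draw neutrophils through CXCR1 and CXCR2. CSF3 (G-CSF) drives the formation of neutrophils, and CSF2 (GM-CSF) that of macrophages and granulocytes. IL6, LIF and IL11 each bind a receptor chain of their own and then the shared chain IL6ST (gp130), which activates JAK kinases and STAT3. Transcripts of many of these genes are short-lived, since AU-rich elements in them recruit decay factors. The arrays measured RNA, not secreted protein, and in bulk RNA fewer cells of a type and less RNA per cell cannot be told apart.

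RefSeq promoter windows on GRCh38.p14, each of the 250 bases before the start of the gene, were at hand for 4 of the 7 measured genes (CSF2, IL6, IL11 and CXCL2). Those of IL11, IL6 and CXCL2 are shown because they hold a match to a motif of AHR, AP-1 or NF-kB. AHR was searched because the ligands bind it, and AP-1 and NF-kB are transcription factors often tied to induction of these cytokines. Each window runs 5′ to 3′ on the strand of the gene, and capitals mark the matches.
IL11, chr19:55370464-55370713, - strand: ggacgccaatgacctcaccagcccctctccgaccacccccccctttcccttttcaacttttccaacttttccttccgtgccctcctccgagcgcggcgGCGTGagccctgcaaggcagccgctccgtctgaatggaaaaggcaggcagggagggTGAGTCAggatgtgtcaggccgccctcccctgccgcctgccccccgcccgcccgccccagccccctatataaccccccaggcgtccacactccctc
IL6, chr7:22726950-22727199, + strand: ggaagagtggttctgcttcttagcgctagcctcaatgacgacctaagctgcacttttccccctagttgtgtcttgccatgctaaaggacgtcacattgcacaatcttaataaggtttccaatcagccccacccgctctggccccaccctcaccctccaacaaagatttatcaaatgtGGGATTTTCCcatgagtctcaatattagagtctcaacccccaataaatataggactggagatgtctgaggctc
CXCL2, chr4:74099196-74099445, - strand: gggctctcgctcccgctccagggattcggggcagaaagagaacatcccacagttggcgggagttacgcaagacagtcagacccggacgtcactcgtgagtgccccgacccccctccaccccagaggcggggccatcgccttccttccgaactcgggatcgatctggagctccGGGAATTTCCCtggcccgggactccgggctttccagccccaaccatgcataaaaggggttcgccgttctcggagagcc
In IL11 the capitals mark the AHR core GCGTG at 152 to 148 bases and an AP-1 match, TGAGTCA, at 96 to 90 bases before the start. In IL6 they mark an NF-kB match at 73 to 64 bases before the start. In CXCL2 they mark a pair of overlapping NF-kB matches, at 78 to 69 and at 77 to 68 bases. The CSF2 window held no match to the 3 motifs. Searched on both strands in 34943 promoter windows of the same length, the AHR core GCGTG was present in 32.2%, the AP-1 motif TGANTCA in 6.59% and the NF-kB motif in 9.95%. These matches are descriptions of the sequence and not binding sites shown in these cells.

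CCL2 RNA was higher after FICZ. Its log2 signals were 7.47, 6.68, 7.07 and 6.92 in DMSO 1 to 4, which were 8.12, 7.82, 8.02 and 7.89 in FICZ 1 to 4 and 7.83, 7.54, 7.99 and 7.72 in KynA 1 to 4. The 4 FICZ arrays and the 4 KynA arrays all lay above the highest DMSO array, and FICZ and KynA arrays overlapped. The means were 7.037 ± 0.335 with DMSO, 7.962 ± 0.133 with FICZ and 7.771 ± 0.191 with KynA (SD, n = 4 each). With FICZ, CCL2 rose by 0.93 ± 0.147 on the log2 scale (SE, n = 4 per group; 95% interval 0.611 to 1.239), or 1.9-fold, with a limma adjusted p of 0.0078. It ranked 25 of 10807 genes by p and 18 by the size of the rise.

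A gene counts as tested here when its signal exceeded the 25th percentile of the array, a filter value of 7.687 to 7.743, on at least 4 of the 12 arrays. CCL2 did so on 7 arrays, the 4 with FICZ and 3 with KynA, and on no DMSO array. Its level with DMSO was therefore among the dim signals, which limits the precision of its fold change. Because CCL2 was tested only through its ligand arrays, the counts of tested members below are descriptions and support nothing. In each of the 12 fits that left out 1 array, CCL2 kept its call in FICZ against DMSO, with adjusted p from 0.00227 without DMSO 1 to 0.0305 without DMSO 4. Leaving out a KynA array could change only the p, not the FICZ difference. The filter still used all 12 arrays in each of these 12 fits, so the place of CCL2 among the tested genes was fixed beforehand. In a fit of all genes without the filter, its limma adjusted p for FICZ was 0.0154.

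With KynA the CCL2 difference was 0.73 ± 0.147 (SE, n = 4 per group; 95% interval 0.42 to 1.048), or 1.66-fold. It did not pass, with a limma adjusted p of 0.284 (unadjusted 0.000184), although it ranked 7 of 10807 genes by p and 7 by size. Of the 12 fits that left out 1 array, the KynA difference passed in 1. That fit left out DMSO 1, the highest DMSO array for CCL2, and gave 0.88 with a limma adjusted p of 0.048. In the others it did not pass, with a limma adjusted p of up to 0.989 without KynA 3. The KynA difference also passed with the replicate number as a block (limma adjusted p = 0.0333). The labels do not say, however, whether that number marks a shared culture or day. Between FICZ and KynA the CCL2 difference was 0.19 ± 0.147 (95% interval -0.123 to 0.505; limma adjusted p = 0.757). The order of the CCL2 means was thus FICZ, KynA and DMSO, and the first pair of neighbours did not differ beyond their spread. The ligands were given at doses that differ, 100 nM and 50 µM, and were compared with the same DMSO arrays.

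**Figure D1:**
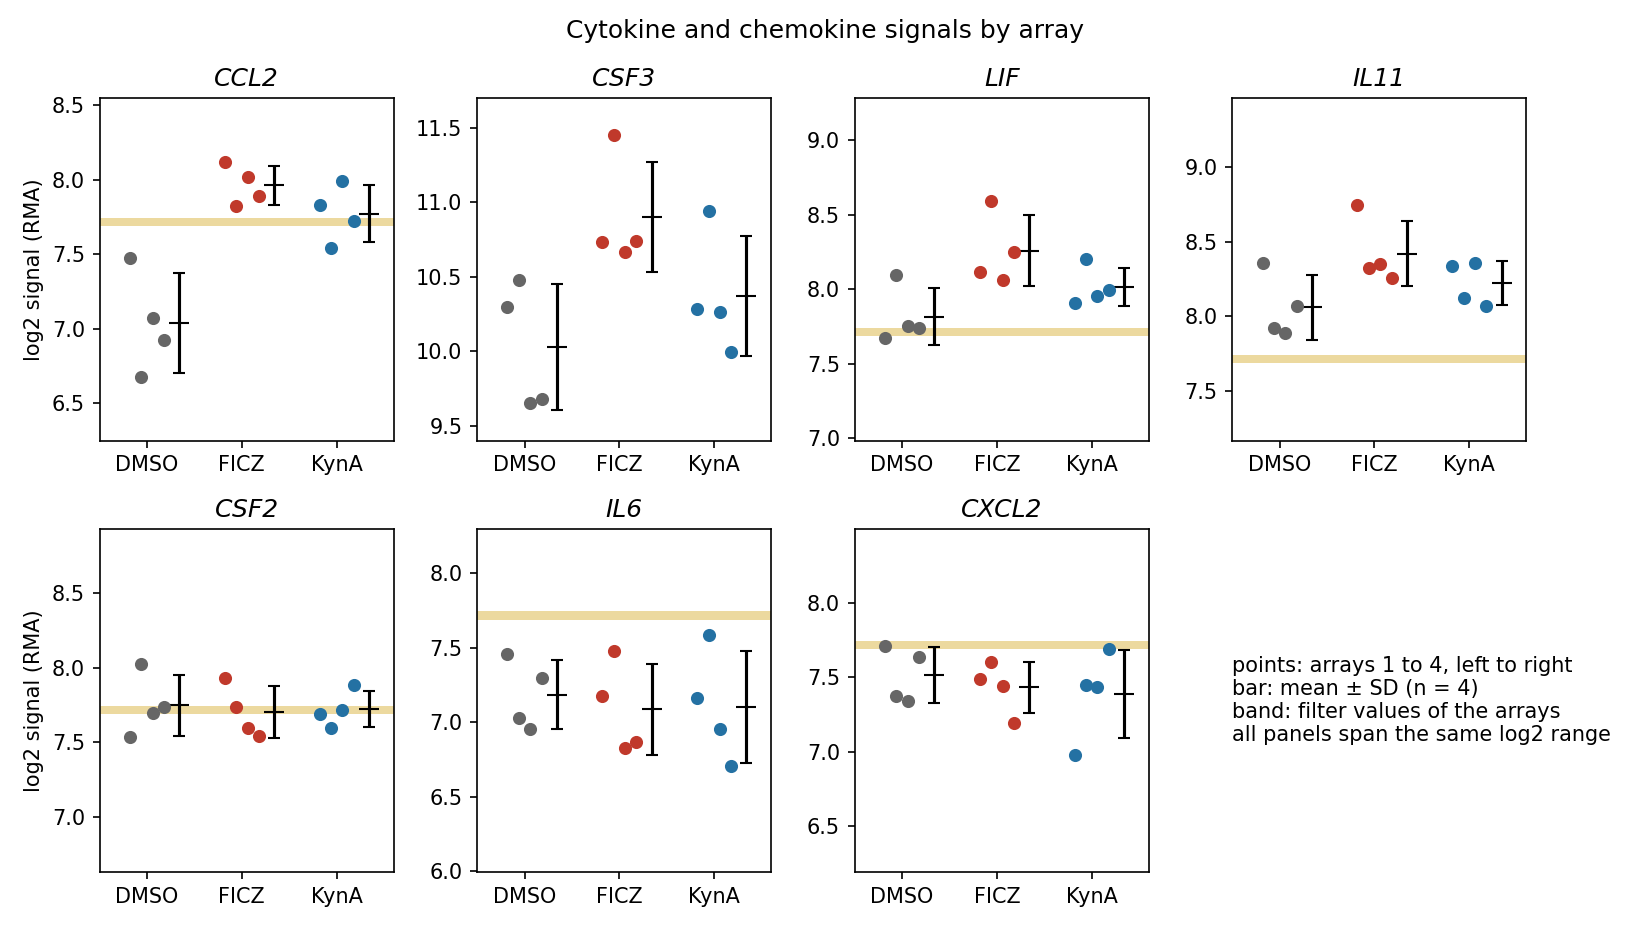
Log2 signal (RMA, y axis) of the 7 measured genes on each array, by treatment (x axis), with arrays 1 to 4 from left to right and bars for the mean ± SD (n = 4). The band spans the filter values of 7.687 to 7.743, and all panels span the same log2 range. The FICZ arrays lie above all DMSO arrays for CCL2 and CSF3, and IL6 and CXCL2 stay below the filter value of their array on all 12 arrays.

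CXCL2, a neutrophil chemokine, was dim in every group. Its log2 signals ran from 7.34 to 7.71 with DMSO, from 7.19 to 7.60 with FICZ and from 6.98 to 7.69 with KynA, below the filter value on all 12 arrays. The means were 7.514 ± 0.185, 7.431 ± 0.174 and 7.386 ± 0.298 (SD, n = 4 each), and the 3 groups overlapped. CXCL2 was not among the genes tested, so its contrasts were tested one at a time by exact permutation of the 8 arrays concerned (two-sided; no p below 0.0286 can be reached). The difference with FICZ was -0.08 (exact permutation p = 0.543; 95% interval -0.398 to 0.231 from limma without the filter). With KynA it was -0.13 (exact permutation p = 0.6; interval -0.443 to 0.186), and between the ligands 0.04 (exact permutation p = 0.8). These intervals leave room for changes of either sign at a signal this dim.

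CSF3, the granulocyte colony-stimulating factor, was above the filter value on all 12 arrays. Its log2 signals were 10.30, 10.48, 9.65 and 9.68 in DMSO 1 to 4, which were 10.74, 11.45, 10.67 and 10.74 in FICZ 1 to 4 and 10.28, 10.94, 10.27 and 9.99 in KynA 1 to 4. All 4 FICZ arrays exceeded the highest DMSO array, whereas KynA overlapped both other groups. FICZ 2 stood well above the rest of its group. The means were 10.03 ± 0.422, 10.9 ± 0.369 and 10.37 ± 0.402 with DMSO, FICZ and KynA (SD, n = 4 each).

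The CSF3 difference with FICZ was 0.87 ± 0.233 on the log2 scale (SE, n = 4 per group; 95% interval 0.373 to 1.371), or 1.83-fold. It did not pass over all genes, with a limma adjusted p of 0.105 (unadjusted 0.00213). With the replicate number as a block it passed (limma adjusted p = 0.0048), but what that number marks is not stated in the labels. In the fit without the block, CSF3 ranked 27 of 10807 genes by the size of the rise but 220 by p. Its SE of 0.233 exceeded the 0.147 of CCL2. Without FICZ 2 the difference was 0.688 (limma adjusted p = 0.224). With KynA it was 0.34 ± 0.233 (interval -0.155 to 0.843; limma adjusted p = 1), and between FICZ and KynA 0.53 ± 0.233 (interval 0.029 to 1.027; limma adjusted p = 0.58). These 2 values moved with single arrays. The KynA difference ran from 0.155 without KynA 2 to 0.494 without DMSO 2, and the difference between the ligands from 0.344 without FICZ 2 to 0.717 without KynA 2.

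CSF2, the granulocyte-macrophage colony-stimulating factor, showed no ordered difference. Its log2 signals were 7.54, 8.02, 7.69 and 7.73 with DMSO, 7.93, 7.74, 7.60 and 7.54 with FICZ and 7.69, 7.60, 7.71 and 7.88 with KynA, in the order of arrays 1 to 4. The 3 groups overlapped, and the signal exceeded the filter value on 4 of the 12 arrays. The means were 7.746 ± 0.203, 7.7 ± 0.174 and 7.722 ± 0.12 (SD, n = 4 each). The difference with FICZ was -0.05 ± 0.114 (95% interval -0.29 to 0.198; limma adjusted p = 0.889). With KynA it was -0.02 ± 0.114 (interval -0.269 to 0.219; limma adjusted p = 1). Rises of the size seen for CCL2 lie outside both intervals. The CSF2 signal was near the filter value, however, so these intervals do not exclude such a rise in the RNA itself.

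Among the interleukin-6 family, LIF, known for keeping stem cells undifferentiated, was above the filter value on 11 of 12 arrays. DMSO 1 lay below that value and DMSO 3 and 4 only just above it, so LIF was dim with DMSO. Its log2 signals were 7.67, 8.10, 7.75 and 7.74 in DMSO 1 to 4, which were 8.12, 8.60, 8.07 and 8.25 in FICZ 1 to 4 and 7.91, 8.20, 7.96 and 8.00 in KynA 1 to 4. DMSO 2 alone reached the FICZ range, and 3 of the 4 FICZ arrays lay above every DMSO array. The means were 7.816 ± 0.191, 8.258 ± 0.238 and 8.015 ± 0.129 (SD, n = 4 each). The LIF difference with FICZ was 0.44 ± 0.125 on the log2 scale (SE, n = 4 per group; 95% interval 0.175 to 0.709), or 1.36-fold. This difference did not pass (limma adjusted p = 0.123, unadjusted 0.00318), except with the replicate number as a block (limma adjusted p = 0.02). With KynA it was 0.20 ± 0.125 (interval -0.068 to 0.466; limma adjusted p = 1), and between the ligands 0.24 ± 0.125 (interval -0.024 to 0.51; limma adjusted p = 0.634).

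IL11, a cytokine of bone marrow and fibrosis, was above the filter value on all 12 arrays. Its log2 signals were 8.36, 7.92, 7.89 and 8.07 with DMSO, 8.75, 8.32, 8.35 and 8.26 with FICZ and 8.34, 8.12, 8.36 and 8.07 with KynA, in the order of arrays 1 to 4. DMSO 1 lay within the FICZ range, FICZ 1 was the highest array of all, and the groups overlapped. The means were 8.059 ± 0.215, 8.421 ± 0.22 and 8.222 ± 0.148 (SD, n = 4 each). The IL11 difference with FICZ was 0.36 ± 0.127 on the log2 scale (SE, n = 4 per group; 95% interval 0.088 to 0.634), or 1.28-fold, and did not pass (limma adjusted p = 0.211, unadjusted 0.0131). With KynA it was 0.16 ± 0.127 (interval -0.11 to 0.436; limma adjusted p = 1), and between the ligands 0.20 ± 0.127 (interval -0.074 to 0.472; limma adjusted p = 0.72).

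IL6, the inflammatory cytokine that gives the family its name, lay below the filter value on all 12 arrays. Its log2 signals ran from 6.96 to 7.46 with DMSO, from 6.82 to 7.48 with FICZ and from 6.70 to 7.59 with KynA, with overlap of the 3 groups. The means were 7.184 ± 0.233, 7.087 ± 0.305 and 7.102 ± 0.374 (SD, n = 4 each). Its difference was -0.10 with FICZ (exact permutation p = 0.657; interval -0.51 to 0.315 from limma without the filter). With KynA it was -0.08 (exact permutation p = 0.686; interval -0.494 to 0.33), and between the ligands -0.02 (exact permutation p = 1).

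**Figure D2:**
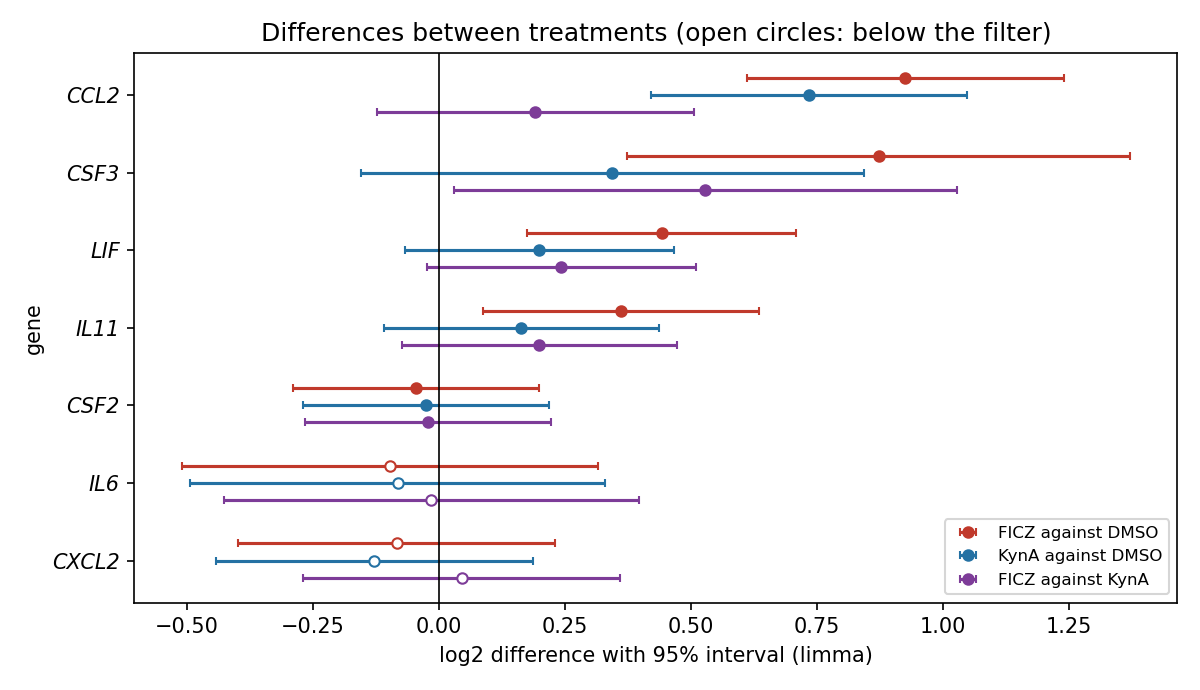
Log2 difference (x axis) with its 95% limma interval for each measured gene (y axis) for each ligand against DMSO and for FICZ against KynA. Open circles mark IL6 and CXCL2, below the filter, whose intervals come from the fit without it. The intervals of CCL2 lie above 0 for both ligands against DMSO, at 0.611 to 1.239 and 0.42 to 1.048, before any adjustment over genes.

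Set against the whole table, 1 of the 5 tested members rose with FICZ at an adjusted p under 0.05, where 0.601% of all genes were called higher and 0.851% in either direction. At an unadjusted p under 0.05, 4 of 5 (CCL2, CSF3, LIF and IL11) were higher, against 5.89% of all genes. In 2 of 5, CCL2 and CSF3, all 4 FICZ arrays lay above all 4 DMSO arrays, against 2.94% of all genes. The median log2 difference of all tested genes was -0.03. The members were chosen with earlier results of these data known, so these shares and those for KynA are descriptions and no evidence about the set.

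With KynA, 0 of 5 members were called by limma, where 0.00925% of all genes were. At an unadjusted p under 0.05, 1 of 5 (CCL2) was higher, against 1.87% of all genes, and in that gene alone all 4 KynA arrays lay above all 4 DMSO arrays, against 1.13%. Between FICZ and KynA, 0 of 5 were called by limma, again against 0.00925%. At an unadjusted p under 0.05, 1 of 5 (CSF3) was higher with FICZ, against 3.12% of all genes. For CCL2, CSF3, LIF and IL11 the KynA mean lay between those of DMSO and FICZ, but none of these 4 genes passed between the ligands after adjustment. With 1 array left out, the KynA difference ran from 0.137 to 0.292 for LIF and from 0.105 to 0.262 for IL11. Between the ligands it ran from 0.114 to 0.265 for CCL2, from 0.131 to 0.307 for LIF and from 0.091 to 0.253 for IL11.

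**Figure D3:**
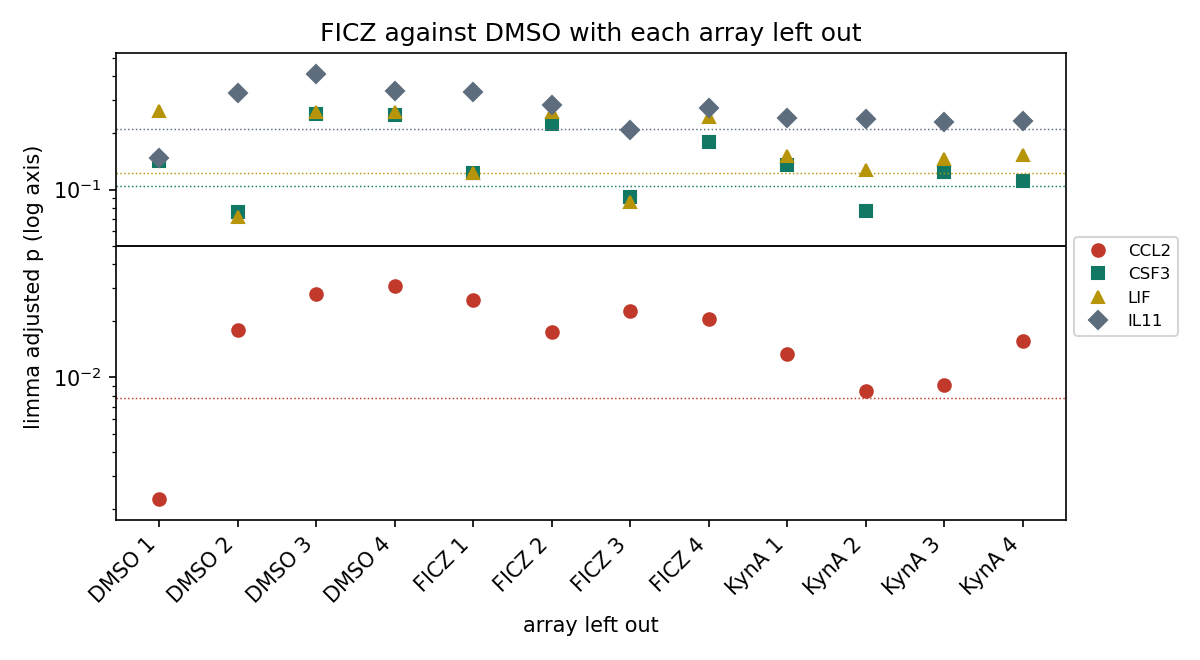
Limma adjusted p (log y axis) of FICZ against DMSO for CCL2, CSF3, LIF and IL11 with each array left out in turn (x axis). Dotted lines give the value with all 12 arrays and the solid line marks 0.05. CCL2 stays under 0.05 in all 12 fits, at most 0.0305, and the other 3 genes stay above it. Leaving out a KynA array leaves the difference itself unchanged.

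The members did not vary together as 1 group across arrays. CSF3 and LIF tracked each other over the 12 arrays (Pearson r = 0.89), also after the group means were taken out (r = 0.76). The array numbered 2 was the highest of its group for both genes with each treatment. CCL2 and IL11 tracked each other as well (r = 0.80, and 0.75 without the group means). CCL2 and LIF were both higher with FICZ, yet within groups they ran opposite ways (r = 0.38 over the arrays, and -0.74 without the group means), and the array numbered 2 was the lowest of its group for CCL2 with each treatment. CSF3 and IL6 had an r of 0.38, and of 0.71 without the group means, although IL6 was dim. The points of each correlation share the 12 arrays and the 3 treatments, and 21 pairs were computed, so these values are descriptions.

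**Figure D4:**
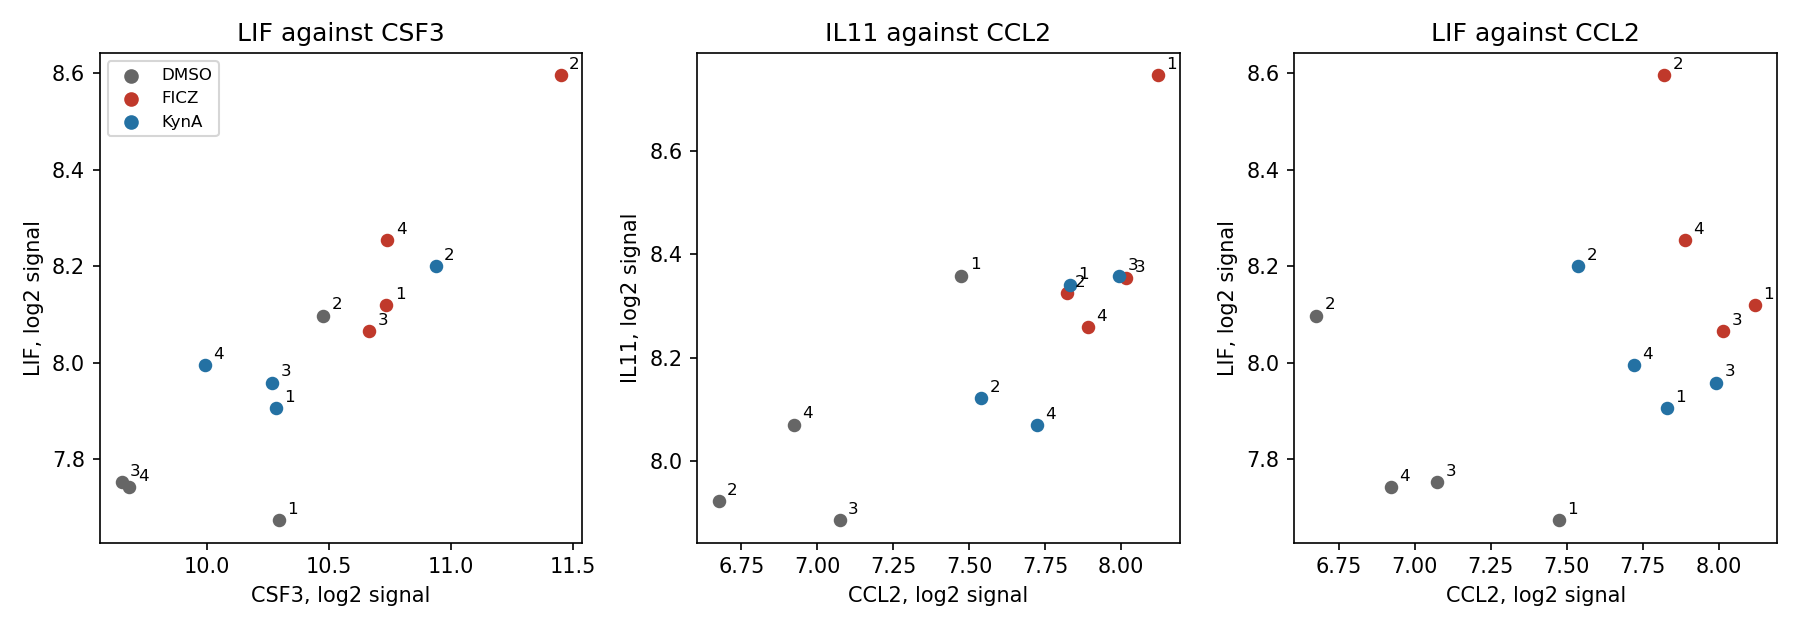
Log2 signals of LIF against CSF3, IL11 against CCL2 and LIF against CCL2, with 1 point per array, coloured by treatment and numbered by replicate (12 arrays). CSF3 and LIF rise together (r = 0.89), as do CCL2 and IL11 (r = 0.80), whereas LIF against CCL2 falls within each group (r = -0.74 without the group means).

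The genes whose signal was most like that of CCL2 over the 12 arrays, members aside, were EREG (r = 0.946), ST8SIA5 (r = 0.936) and KIF19 (r = 0.919). EREG, an EGF-family growth factor, ran from 10.28 to 10.71 with DMSO, from 11.25 to 11.66 with FICZ and from 10.73 to 11.19 with KynA on the log2 scale. It rose by 0.91 ± 0.125 with FICZ (SE, n = 4 per group; limma adjusted p = 0.00276) and differed by 0.54 with KynA (limma adjusted p = 0.494). ST8SIA5, a sialyltransferase, rose by 0.66 ± 0.0947 with FICZ (limma adjusted p = 0.0039) and differed by 0.49 with KynA (limma adjusted p = 0.284). KIF19, a kinesin, differed by 0.31 with FICZ and did not pass (limma adjusted p = 0.164). After removal of the group means, r with CCL2 was 0.82, 0.65 and 0.89 for the 3 genes.

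Other chemokines were sparsely represented. Of 22 listed, 6 had a row and 5 were tested, 0 of which passed with either ligand. The median log2 difference with FICZ was 0.14, beside -0.03 over all genes, and 2 genes were higher and 1 lower at an unadjusted p under 0.05. CXCL6, a neutrophil chemokine of the same family as CXCL2, ran from 6.84 to 7.81 with DMSO and from 7.64 to 8.54 with FICZ, with a difference of 0.65 (limma adjusted p = 0.227). CX3CL1 (fractalkine), the ligand of CX3CR1 on microglia, differed by 0.33 (limma adjusted p = 0.199) and the mucosal chemokine CXCL17 by -0.48 (limma adjusted p = 0.176).

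Of 24 other cytokines, 13 had a row and 11 were tested, and 1 rose with FICZ: IL1B, the inflammatory interleukin-1 that is known to induce CCL2, IL6 and CSF3 in many cells. Its log2 signals were 7.53, 8.24, 7.36 and 7.43 with DMSO, 9.98, 10.44, 9.43 and 9.53 with FICZ and 8.80, 9.09, 8.21 and 8.17 with KynA. FICZ arrays lay above every other array, and KynA overlapped DMSO at DMSO 2. In DMSO 1, 3 and 4 IL1B lay below the filter value. Its DMSO level was thus dim, and it was tested mainly through its ligand arrays. The rise with FICZ was 2.20 ± 0.256 (SE, n = 4 per group; limma adjusted p = 0.000949), and the KynA difference of 0.92 did not pass (limma adjusted p = 0.923). The list's median was -0.01 with each ligand. KITLG (stem cell factor) differed by -0.50 with FICZ (limma adjusted p = 0.131) and CTF1, a further gp130 cytokine, by 0.39 (limma adjusted p = 0.199).

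Receptors through which the members act were measured in part. Among 19 chemokine receptors 5 had a row and 4 were tested, and among 12 cytokine receptors 8 had a row and 5 were tested, with 0 passing in any comparison by limma. CCR2, CXCR1, CXCR2 and IL11RA had no row with a symbol of their own and were not analysed here, and CSF3R, CSF2RA and CSF2RB were below the filter. CCR3, a receptor for eotaxins, differed by 0.37 with FICZ (limma adjusted p = 0.36) and was the 1 receptor higher at an unadjusted p under 0.05 with KynA, by 0.58. Its DMSO signals, from 7.06 to 7.57, lay below the filter value, so CCR3 was dim and tested only through its ligand arrays. CCRL2 differed by 0.21 and CCR7 by 0.20 with FICZ (limma adjusted p = 0.589 and 0.595). The shared chain IL6ST, from 10.45 to 10.71 with DMSO and from 10.62 to 10.80 with FICZ, differed by 0.11 (limma adjusted p = 0.586). LIFR, the LIF receptor chain, differed by -0.24 (limma adjusted p = 0.268) and CSF1R by 0.23 (limma adjusted p = 0.466). Without FICZ 4, which stood apart from the other arrays, the differences were 0.013 for CCR7, 0.128 for CCRL2 and 0.1 for CSF1R.

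Downstream of these receptors, the JAK, STAT, SOCS and target genes of the interleukin-6 family showed no call. Of 25 genes listed, 21 had a row and 18 were tested, with 0 passing for either ligand, 3 higher and 2 lower with FICZ at an unadjusted p under 0.05, and a median of -0.03, the same as over all genes. SOCS5, a feedback inhibitor, differed by 0.26 (limma adjusted p = 0.143), the transcription factor CEBPB by 0.27 (limma adjusted p = 0.156) and BCL3, an atypical IkB protein, by 0.42 (limma adjusted p = 0.196). The 2 lower genes with FICZ were SOCS3, at -0.247 (limma adjusted p = 0.258), and PIM1, at -0.255 (limma adjusted p = 0.294). Among 18 regulators of AU-rich mRNA decay, all with a row, 17 were tested and 0 passed for either ligand, with a median of -0.08 for FICZ. ZFP36L2, which binds AU-rich elements, had log2 signals from 8.57 to 9.02 with DMSO and from 8.37 to 8.49 with FICZ. Its difference of -0.37 missed the threshold (limma adjusted p = 0.0941). The deadenylase scaffold CNOT1 differed by -0.19 (limma adjusted p = 0.345) and the decay factor KHSRP by -0.21 (limma adjusted p = 0.36).

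**Figure D5:**
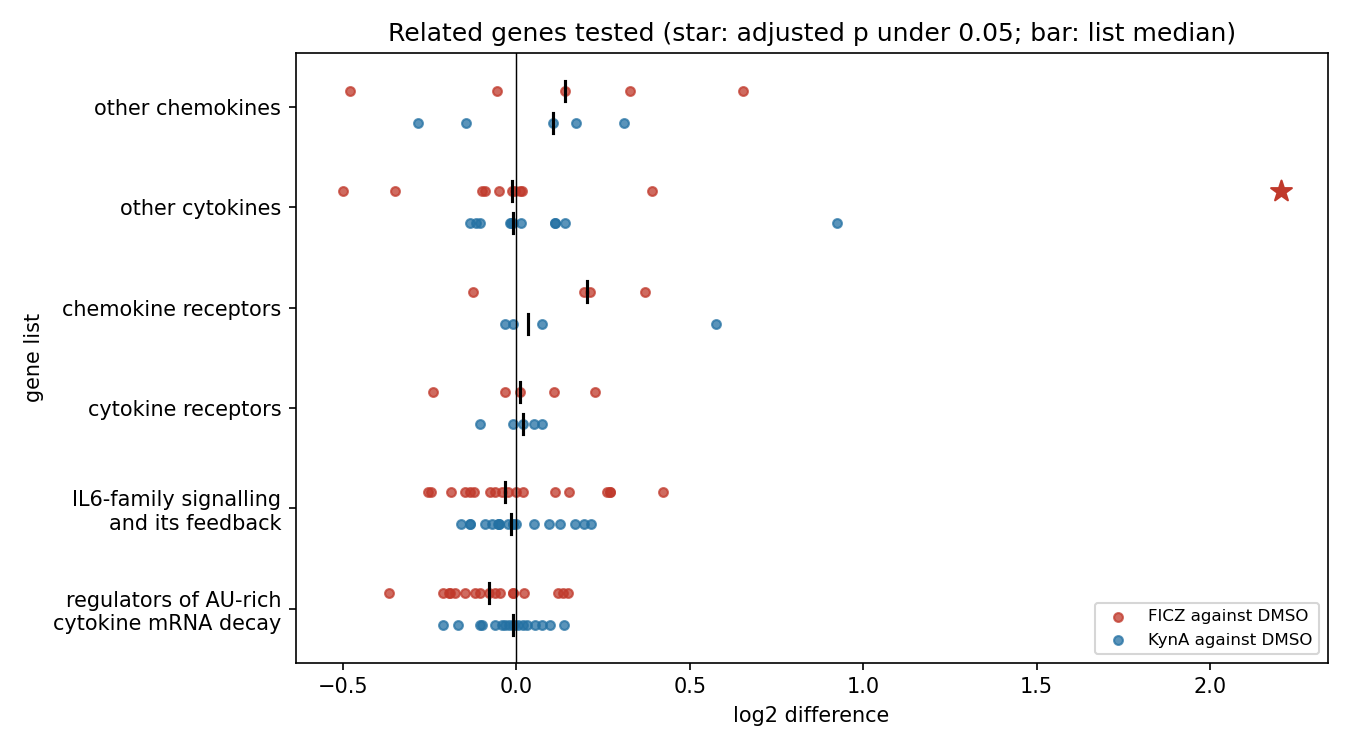
Log2 difference (x axis) of each tested gene in 6 lists of related genes (y axis), for FICZ and KynA against DMSO, with bars at the list medians. A star marks the 1 gene with an adjusted p under 0.05, IL1B with FICZ at 2.20, and list medians run from -0.08 to 0.20 with FICZ.

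Of 13 glioma and astrocyte markers 9 had a row and 8 were above the filter, brightest VIM and CHI3L1, with 0 called. Their list mean was 9.19 to 9.37 on DMSO arrays and 9.27 to 9.4 on FICZ arrays. S100B, SOX2, SLC1A2 and OLIG2 had no row and were not analysed here, and ALDH1L1 was below the filter. Since CCL2 is also made by macrophages, endothelial cells and fibroblasts, markers of those cells were read beside it. RMA signals have no true 0, so a marker can be dim but not absent. Of 12 myeloid markers 6 had a row and 5 were above the filter, brightest CSF1R and AIF1, with a list mean of 7.68 to 8.06 with DMSO, 7.75 to 8.29 with FICZ and 7.86 to 8.24 with KynA. CD14, CD68, LYZ and CD163 had no row and were not analysed here, and TMEM119 rose by 0.63 ± 0.124 with FICZ (SE, n = 4 per group; limma adjusted p = 0.032). That call was lost without DMSO 1, DMSO 2, DMSO 3, FICZ 2 or FICZ 4 (adjusted p up to 0.105, without DMSO 3).

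Of 8 endothelial markers 4 had a row and 3 were above the filter, with a list mean of 7.79 to 7.99 with DMSO, 8.01 to 8.14 with FICZ and 7.86 to 8.08 with KynA. KDR rose by 0.48 ± 0.0939 with FICZ (SE, n = 4 per group; limma adjusted p = 0.0293), a call lost without DMSO 1, DMSO 2, DMSO 3, FICZ 2 or FICZ 3 (adjusted p up to 0.0868, without DMSO 3). PECAM1 and CDH5 had no row and were not analysed here. Of 9 fibroblast and pericyte markers 8 had a row and 5 were above the filter, brightest COL1A2 and COL1A1, with 0 called. Of 8 lymphocyte markers 3 had a row and 0 were above the filter. The part of these markers in the CCL2 result was not tested.

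Array medians lay between 8.3 and 8.33 and correlations between arrays from 0.938 to 0.975. FICZ 4 stood apart, scoring highest on the leading principal component (24.2, against 13.6 for the next array) and the lowest array weight (0.551). Without FICZ 4 the FICZ difference was 0.949 for CCL2 (limma adjusted p = 0.0206), 0.925 for CSF3 (0.179), 0.443 for LIF (0.244) and 0.415 for IL11 (0.271), so CCL2 kept its call and the other 3 again missed it.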

How the data were processed

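Gene expression was measured in 12 samples on Affymetrix arrays, 1 array per sample. Per the submitters' processing notes, the authors summarised each transcript cluster with RMA (oligo), which gives the deposited log2 signals; neither version is named in the sources used here. Of 15759 rows, 13577 had 1 platform symbol, 744 several and 1438 none. For the 45 genes with several rows the one with the highest mean was kept. Genes above the 25th percentile of the array on at least 4 arrays were tested, 10807 in all.

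The fit was limma's group-means model over all 12 arrays, two-sided, with Benjamini-Hochberg adjustment over all tested genes. Intervals are 95%. The median SE was 0.106, and the number of arrays limits precision. The named genes were all 10 members, and for each related list every gene called plus the 3 with the smallest p for FICZ, the 3 genes most like CCL2, and the 2 brightest markers per list. Members and lists were chosen with earlier results of these data known. SOCS3, PIM1, the 2 markers called, and receptors and markers named as below the filter or without a row were named after their values were seen. Promoters came from RefSeq. The fit was tested on simulated data. Alternatives were centring, cyclic loess, other filters, the mean of rows, a trended robust variance, array weights, only the 8 arrays compared, a replicate block and leaving out each array. Software was limma 3.58.1 in R 4.3.3, with plots by matplotlib 3.10.9 in Python 3.11.15.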

Additional observations from a re-analysis of the deposited data

Results flagged for a closer look

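In each treatment group of 4 arrays, the highest and lowest signals of the named genes were checked for a gap to the nearest array that took up an unusual share of the group's range (Dixon's test at its 95% critical value). Of 84 groups 6 had such an array, and chance gives about 1 in 20.

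For CSF3, FICZ 2 lay at 11.45 with the nearest FICZ array at 10.74, a gap of 0.906 of the range. Without it the FICZ difference fell from 0.872 to 0.688 on the log2 scale and remained short of the threshold (limma adjusted p = 0.224). None of the other 20 groups of the measured members was far apart in this way.

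For KITLG, KynA 3 lay at 8.24 with the nearest at 7.86 (0.879 of the range). For CTF1, DMSO 3 lay at 7.58 with the nearest at 7.88 (0.903). For IL6ST, KynA 4 lay at 10.83 with the nearest at 10.62 (0.915). KynA 2 was the low array of its group for EREG, at 10.73 with the nearest at 11.11 (0.836), and for KIF19, at 7.85 with the nearest at 8.09 (0.839).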

How the results depend on the processing

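CCL2 kept its rise and its call with FICZ in all 20 alternatives that tested it (0.805 to 1.071; limma adjusted p 0.00172 to 0.0305). The filter at the 50th percentile removed CCL2, so that 0 members were called. The labels do not say whether a replicate number marks a shared culture or day, so equal numbers were not taken as pairs. Deviations of same-numbered FICZ and DMSO arrays correlated at 0.13, 0.213, 0.157 and 0.02, so not every pair exceeded 0.1. For FICZ and DMSO, 6 of 8 arrays correlated best with their own number. The count was 3 of 8 for KynA and DMSO and 3 of 8 for FICZ and KynA. With the replicate number as a block, 3 members were called for FICZ (CCL2, CSF3 at an adjusted p of 0.0048 and LIF at 0.02) and 1 for KynA (CCL2, 0.0333), with 124 genes in all for FICZ, 6 for KynA and 6 for FICZ against KynA. Whether CSF3 and LIF passed with FICZ thus depended on the block. Leaving out 1 array gave 1 member for FICZ throughout and 0 to 1 for KynA. Over all genes the count for FICZ was 92, but 140 with a trended, robust variance, 43 with only the 8 arrays compared and 42 to 103 with 1 array left out; it was over 1.5 times lower without DMSO 1 (42), DMSO 2 (57), DMSO 3 (44), DMSO 4 (49), FICZ 2 (44) or FICZ 4 (42). For KynA it was 1, with 2 under the trended, robust variance and 1 to 2 with 1 array left out. For FICZ against KynA it was 1, and 2 without a filter. The CSF2 difference, near 0, changed sign: with 1 array left out it ran from -0.122 to 0.046 for FICZ, from -0.095 to 0.067 for KynA and from -0.098 to 0.033 between the ligands, where it was 0.017 with array weights. KITLG with FICZ passed without FICZ 3 (-0.623; adjusted p = 0.0492). The markers TMEM119 and KDR lost their call in 13 values in all, also with only the 8 arrays compared (adjusted p = 0.067 and 0.0531) and, for TMEM119, without a filter (0.0515). Of 869 values for single genes under these alternatives, 843 counted as unchanged. For tested genes this meant the same direction and the same side of the threshold. For IL6 and CXCL2, below the filter, it meant a shift smaller than the SD within groups, whatever the sign. The IL6 difference between the ligands, for example, went from -0.02 to 0.059 without FICZ 4 and counted as unchanged. Some of the 869 values could not move. Leaving out an array of the group not compared, or averaging the rows of a gene with 1 row, leaves the difference as it was. The share counted as unchanged is therefore no measure of support. The cause of the changes above was not tested. Array signals near or below the filter value limit CCL2, LIF and IL1B with DMSO, and CSF2, IL6 and CXCL2 throughout.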
